A study of Arabidopsis thaliana with 9 samples.

Results

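KNOLLE (SYP111, AT1G08560), HINKEL (AT1G18370), the B1-type cyclins CYCB1;1 (AT4G37490), CYCB1;2 (AT5G06150) and CYCB1;4 (AT2G26760), the B-type cyclin-dependent kinases CDKB1;1 (AT3G54180), CDKB2;1 (AT1G76540) and CDKB2;2 (AT1G20930), and the replication clamps PCNA1 (AT1G07370) and PCNA2 (AT2G29570) are genes that dividing plant cells express. They are 10 of the 27218 genes in the deposited gene table. The 10 loci were selected on their gene-table values in all 9 libraries, so their levels and differences are a description, and where some of them are counted past a threshold nothing is read from that count. After a filter on low counts, 8 of the 10 stood among the 20103 genes tested, and CYCB1;2 and CYCB1;4 did not.

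RNA was sequenced from 2-week-old whole Arabidopsis thaliana seedlings grown on MS-based medium under long days. The 3 genotypes were WT, plants overexpressing SR45a-1a (SR45a-1a-OE, the overexpressor) and the sr45a mutant, with 3 libraries each, and every plant was held at 45 °C for 3 h, so no unheated level is analysed here. SR45a encodes a serine/arginine-rich protein that acts in pre-mRNA splicing, and SR45a-1a is the splice variant that the overexpressor carries. The series asks how exon skipping in SR45a bears on heat tolerance. The labels speak of overexpression lines in the plural but do not tie a library to a line, and they give neither the promoter of the transgene nor the kind of sr45a lesion. Whether replicates 1 to 3 are separate cultures is not stated either, so p-values measure only the spread between these libraries.

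Division genes are switched on in turn. PCNA, the ring that holds DNA polymerase on its template, is made around S phase. B-type kinases and B1 cyclins build up from G2 into mitosis and drive entry into it, and MYB3R factors bind the MSA element in many of their promoters. HINKEL, a kinesin, and KNOLLE, a syntaxin, then act in cytokinesis, when vesicles fuse into a cell plate between the daughter nuclei. In whole seedlings such transcripts come mostly from meristems and young organs. In a bulk sample, fewer dividing cells and less RNA per dividing cell cannot be told apart.

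Depth was 18036195 to 21864604 gene counts per library, and 1 count equalled 0.0443 to 0.0529 CPM, the count scaled to library size with TMM factors. SR45a followed the labels in every library, at 401 to 433 CPM in WT, 1010 to 1173 CPM in the overexpressor and 1.90 to 7.27 CPM in sr45a. SR45a-1a-OE replicate 3 and sr45a replicate 3 lay away from the other libraries of their genotypes on the leading principal component of all tested genes. That component carried 36.6% of the variance, and the scores were 16.2 against 48.3 and 47.0 for SR45a-1a-OE and 4.70 against −25.3 and −22.2 for sr45a.

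KNOLLE is the cytokinesis-specific syntaxin of Arabidopsis, a Qa-SNARE of the forming cell plate. It was highest in the overexpressor and lowest in sr45a, with all 3 genotypes apart. WT libraries 1 to 3 held 36, 36 and 39 KNOLLE counts, which is 1.59, 1.65 and 1.81 CPM. SR45a-1a-OE libraries 1 to 3 held 83, 81 and 54 counts, or 4.13, 3.75 and 2.51 CPM. The sr45a libraries held 4, 4 and 10 counts, or 0.185, 0.212 and 0.498 CPM. No library of 1 genotype reached into the range of another, and within both altered genotypes replicate 3 lay nearest to WT. The means were 1.69 ± 0.11 CPM in WT, 3.46 ± 0.848 in the overexpressor and 0.298 ± 0.173 in sr45a (SD, n = 3). SR45a-1a-OE was thus 2.05-fold above WT, a fitted log2 fold change of 1.03 (SE 0.28). WT was 5.66-fold above sr45a, with a fitted log2 fold change of −2.48 (SE 0.38) for sr45a against WT. Between SR45a-1a-OE and sr45a the difference was 11.6-fold, or 3.51 (SE 0.36) on the log2 scale. Each of these distances exceeded the spread among the libraries of either genotype. Without sr45a replicate 3 the difference of sr45a from WT was −3.06, and without SR45a-1a-OE replicate 3 that of the overexpressor was 1.22. The lowest libraries stood little above 3 counts, which corresponds to 0.139 CPM in sr45a replicate 1 and 0.159 in replicate 2.

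**Figure D1:**
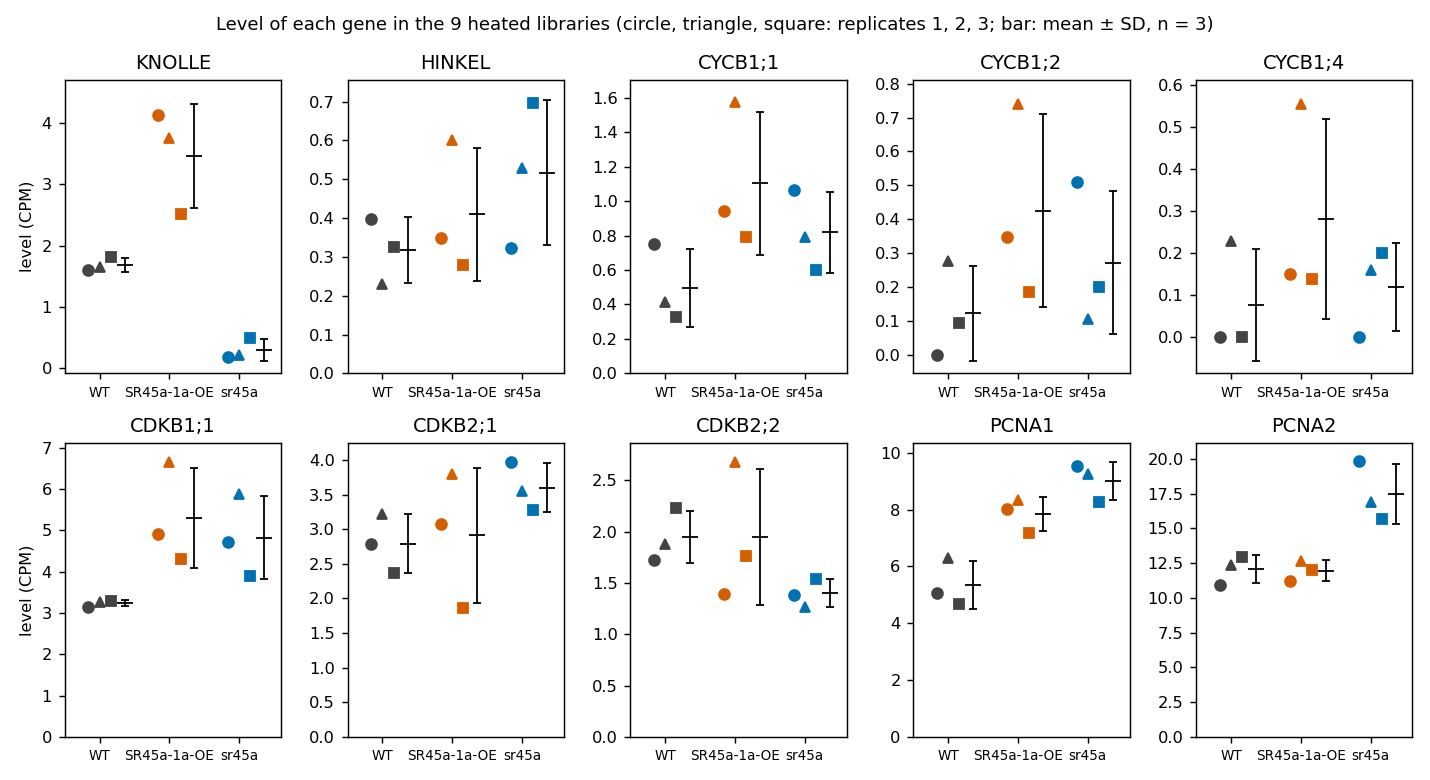
Level in CPM (linear axis, a scale of its own in each panel) of the 10 genes in WT, SR45a-1a-OE and sr45a, with circles, triangles and squares for replicates 1, 2 and 3 and a bar for the mean ± SD of n = 3. KNOLLE steps from 0.298 in sr45a to 3.46 in SR45a-1a-OE, whereas PCNA1 and PCNA2 are highest in sr45a, and the triangle of SR45a-1a-OE replicate 2 is the top of its group in 9 panels.

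In no other panel of the plot of levels by library do the 3 genotypes stand apart with sr45a lowest. CDKB2;2 was also lowest in sr45a, but its means in WT and the overexpressor were both 1.95 CPM. Over the 3 genotypes the KNOLLE level also had the same order as SR45a itself. Libraries with 1.90, 4.55 and 7.27 CPM of SR45a had 0.185, 0.212 and 0.498 CPM of KNOLLE, in that order. The 3 SR45a-1a-OE libraries kept the same order, from 1010 CPM of SR45a with 2.51 of KNOLLE to 1173 CPM with 4.13. In sr45a the values 0.185 and 0.212 both rest on 4 counts, so only scaling to library size sets them apart. Within WT the order did not hold, since replicate 1 had the most SR45a, 433 CPM, and the least KNOLLE, 1.59 CPM. With 3 separate clusters of libraries no correlation over all of them is given, and whether KNOLLE depends on the SR45a level was not tested.

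**Figure D2:**
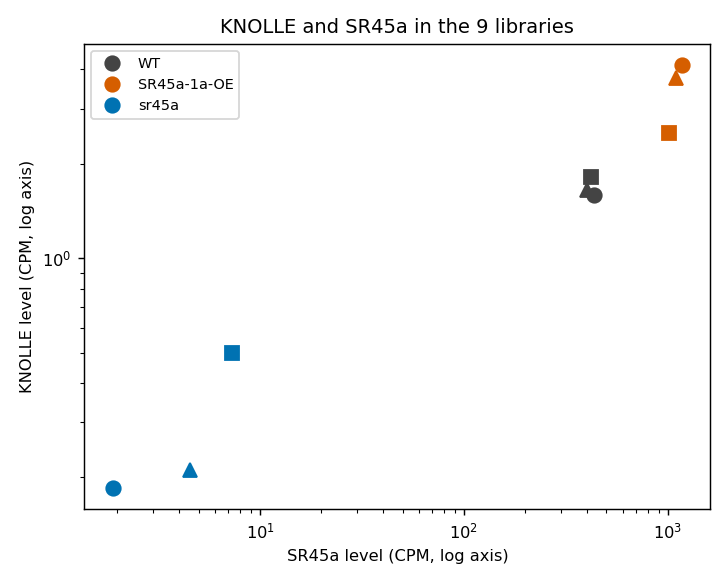
KNOLLE level against SR45a level, both in CPM on log axes, for 9 libraries (circle, triangle, square for replicates 1, 2, 3). The genotypes form 3 separate clusters, with sr45a at 0.185 to 0.498 CPM of KNOLLE, WT at 1.59 to 1.81 and SR45a-1a-OE at 2.51 to 4.13.

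KNOLLE lies on chromosome 1 of TAIR10.1 at chr1:2709525-2711000, minus strand, and its end overlaps NPQ1 (violaxanthin de-epoxidase, a photoprotection enzyme) on the plus strand by 464 bp. The counting strand is not given in the sources used here, so reads in that stretch could be assigned to either gene. NPQ1 stood at 38.0 ± 3.06 CPM in WT, 46.8 ± 8.60 in the overexpressor and 41.8 ± 2.26 in sr45a. It did not pass the edgeR test against WT, with log2 fold changes of 0.30 (SE 0.13, adjusted p = 0.130) in the overexpressor and 0.14 (SE 0.13, adjusted p = 0.637) in sr45a. The deposited transcript table lists 1 KNOLLE transcript, AT1G08560.1, with estimates of 189, 161 and 162 in WT, 387, 399 and 272 in the overexpressor and 20, 24 and 48 in sr45a. These estimates, on a larger scale than the gene counts, keep the 3 genotypes apart in the same order. They cover the same locus as the gene counts, so they say nothing separate about reads in the overlap. On the other side of KNOLLE, the thioredoxin gene ACHT4 rose in SR45a-1a-OE by 0.63 (SE 0.17, adjusted p = 0.0277) and stood at 0.00 (SE 0.17, adjusted p = 0.998) in sr45a.

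The KNOLLE promoter is shown because it carries the mitotic element although the gene's pattern differs from that of the cyclins below. The window runs from 250 bases before the annotated gene start to 50 after it, read 5′ to 3′ on the gene's strand from NCBI's TAIR10.1 genome at chr1:2710951-2711250. Capitals mark the MSA core AACGG, or CCGTT where it lies on the other strand.
KNOLLE: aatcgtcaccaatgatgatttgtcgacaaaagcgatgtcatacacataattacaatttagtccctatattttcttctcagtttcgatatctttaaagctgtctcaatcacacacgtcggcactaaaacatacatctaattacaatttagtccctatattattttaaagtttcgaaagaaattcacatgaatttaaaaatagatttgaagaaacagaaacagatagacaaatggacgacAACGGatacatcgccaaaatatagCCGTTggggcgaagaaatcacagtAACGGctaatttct
The 3 cores start at −12, 13 and 37 from the gene start. Among 27443 promoter windows of the same 300-base length, 24.7% hold at least 1 core and 4.89% hold 2 or more.

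HINKEL, the kinesin that brings the NACK-PQR kinase cascade to the expanding phragmoplast, was counted at 5 to 14 reads per library, near the lower limit of the filter. Its WT libraries had 0.399, 0.230 and 0.325 CPM. SR45a-1a-OE had 0.348, 0.601 and 0.278 CPM. The sr45a libraries had 0.324, 0.529 and 0.697 CPM. All 3 groups overlapped, and the fitted differences from WT were 0.36 (SE 0.47) in the overexpressor and 0.68 (SE 0.46) in sr45a. Without SR45a-1a-OE replicate 2, the highest of its group, the first of these was −0.02. HINKEL on the minus strand of chromosome 1 (chr1:6319450-6324378) overlaps no annotated neighbour, and its promoter holds 1 MSA core, at −11. For this second cytokinesis gene the libraries of a genotype thus spread as widely as the genotypes differed.

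The B1-type cyclins activate the mitotic kinases and are destroyed in anaphase, and CYCB1;1 is also known to be raised when DNA is broken. CYCB1;1 had 17, 9 and 7 counts in WT (0.753, 0.414 and 0.325 CPM), 19, 34 and 17 in SR45a-1a-OE (0.945, 1.57 and 0.789 CPM) and 23, 15 and 12 in sr45a (1.06, 0.794 and 0.597 CPM). Every SR45a-1a-OE library lay above every WT library, the narrowest gap being 0.753 against 0.789 CPM, while sr45a overlapped both. The fitted difference was 1.13 (SE 0.41) for SR45a-1a-OE and 0.71 (SE 0.43) for sr45a against WT. Leaving out SR45a-1a-OE replicate 2 left 0.79 of the first. CYCB1;2 held 0, 6 and 2 counts in WT, 7, 16 and 4 in the overexpressor and 11, 2 and 4 in sr45a. CYCB1;4 held 0, 5 and 0 counts in WT, 3, 12 and 3 in the overexpressor and 0, 3 and 4 in sr45a. Both missed the filter, and their groups overlapped. A count of 0 allows up to 0.133 CPM in WT replicate 1 and 0.139 CPM in WT replicate 3, so no fold change is given for them. In each of these cyclins SR45a-1a-OE replicate 2 was the highest of the 9 libraries.

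The first pair of cyclins is shown because their windows hold MSA cores beside site II elements, which TCP factors bind. Both genes lie on the minus strand, at chr4:17621886-17624308 and chr5:1859279-1861703, and the windows are chr4:17624259-17624558 and chr5:1861654-1861953. Capitals mark the MSA core as above and the site II letters, which are TGGGCC or else TGGGCT on either strand. Both motifs overlap in the first capital run of CYCB1;1.
CYCB1;1: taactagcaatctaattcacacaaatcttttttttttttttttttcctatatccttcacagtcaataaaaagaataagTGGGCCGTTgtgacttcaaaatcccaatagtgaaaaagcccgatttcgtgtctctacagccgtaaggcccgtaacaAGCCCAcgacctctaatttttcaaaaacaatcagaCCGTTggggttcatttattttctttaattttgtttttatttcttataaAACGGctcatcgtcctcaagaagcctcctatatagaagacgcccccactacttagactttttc
CYCB1;2: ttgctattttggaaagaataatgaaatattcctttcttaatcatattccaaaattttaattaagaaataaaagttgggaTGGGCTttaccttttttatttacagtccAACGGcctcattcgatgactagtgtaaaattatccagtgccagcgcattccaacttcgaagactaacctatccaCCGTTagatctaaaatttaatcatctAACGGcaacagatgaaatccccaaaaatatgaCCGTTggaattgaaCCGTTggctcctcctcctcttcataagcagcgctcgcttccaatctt
The former holds 3 MSA cores and 2 site II matches, the latter 5 cores and 1 site II match, and CYCB1;4 (chr2:11401118-11403433, plus strand) holds 2 cores. Site II letters occur in 21.7% of all promoter windows.

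CDKB1;1 (chr3:20059671-20061488, plus strand), a plant-specific kinase that acts from S phase to mitosis and holds back endoreduplication, was above WT in both altered genotypes. WT had 3.15, 3.26 and 3.30 CPM. SR45a-1a-OE had 4.92, 6.66 and 4.32 CPM. The sr45a libraries had 4.72, 5.88 and 3.88 CPM. The 6 altered libraries all exceeded the 3 of WT, which were close together at 71 counts each, and the altered genotypes overlapped each other. SR45a-1a-OE was 1.64-fold above WT (log2 0.71, SE 0.21) and sr45a 1.49-fold (log2 0.57, SE 0.21), and the log2 difference between the altered genotypes was 0.14 (SE 0.20). The gene overlaps AT3G54190 on the opposite strand by 71 bp, which stood at 90.7 ± 1.10 CPM in WT, 103 ± 6.27 in the overexpressor and 94.0 ± 9.46 in sr45a and passed in neither (edgeR adjusted p = 0.206 and 0.835).

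CDKB2;1 (chr1:28720328-28722550) and CDKB2;2 (chr1:7292389-7294746), both on the minus strand, are G2-to-M kinases needed in the shoot meristem. In sr45a they stood on opposite sides of WT. CDKB2;1 had 2.79, 3.22 and 2.37 CPM in WT, 3.08, 3.79 and 1.86 in the overexpressor and 3.98, 3.55 and 3.28 in sr45a. CDKB2;2 had 1.73, 1.88 and 2.23 CPM in WT, 1.39, 2.68 and 1.76 in the overexpressor and 1.39, 1.27 and 1.54 in sr45a. The 3 sr45a libraries were above those of WT for the former, with 3.28 against 3.22 CPM in the closest pair, and below them for the latter. SR45a-1a-OE spanned the WT range for both. Fitted log2 differences of sr45a from WT were 0.37 (SE 0.25) and −0.47 (SE 0.27), and those of the overexpressor 0.06 (SE 0.25) and 0.00 (SE 0.26). Their ratio in FPKM, which also scales for length, was 1.49 ± 0.355 in WT, 1.59 ± 0.606 in the overexpressor and 2.65 ± 0.414 in sr45a (SD, n = 3). The sr45a ratios of 2.92, 2.84 and 2.17 overlapped those of SR45a-1a-OE, where replicate 1 had 2.26. Their coding sequences share 86.6% of aligned bases and their longest identical run is 29 bp, shorter than a read of 150 bp. The first overlaps AT1G76530 by 44 bp and the second AT1G20925 by 192 bp, on the opposite strand, and these neighbours had group means of at most 0.375 and 0.191 CPM.

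PCNA1 and PCNA2 encode the sliding clamp and were the most abundant of the 10. PCNA1 had 5.05, 6.30 and 4.69 CPM in WT, 8.01, 8.33 and 7.19 in the overexpressor and 9.53, 9.26 and 8.26 in sr45a. PCNA2 had 10.9, 12.4 and 13.0 CPM in WT, 11.2, 12.7 and 12.0 in the overexpressor and 19.9, 16.9 and 15.7 in sr45a. All sr45a libraries exceeded all WT libraries for both clamps. SR45a-1a-OE exceeded WT for PCNA1 and lay within the WT range for PCNA2. PCNA1 was 1.47-fold above WT in SR45a-1a-OE (log2 0.55, SE 0.15) and 1.69-fold in sr45a (log2 0.75, SE 0.15). PCNA2 differed from WT by −0.01 (SE 0.13) in the overexpressor and 0.53 (SE 0.12) in sr45a, a 1.45-fold level. In the overexpressor the transcripts of the clamp were thus relatively richer in PCNA1. The FPKM ratio of PCNA2 to PCNA1 was 1.46 ± 0.131, against 2.19 ± 0.397 in WT and 1.85 ± 0.128 in sr45a (SD, n = 3). The overexpressor's ratios, 1.33 to 1.60, lay below those of every other library, of which the lowest was 1.75. PCNA1 and PCNA2 coding sequences share 85.6% of aligned bases, with a longest identical run of 41 bp. PCNA2 overlaps ENOC on the opposite strand by 279 bp, and ENOC stood at 49.3 ± 1.57 CPM in WT, 45.7 ± 3.53 in the overexpressor and 45.3 ± 4.99 in sr45a (edgeR adjusted p = 0.492 and 0.596 against WT). With the counting strand not given, what reads from the overlap contribute to the PCNA2 counts was not tested.

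The PCNA promoters are shown because the paralogues differ in the overexpressor and in which of the searched elements they carry. PCNA1 is on the plus strand at chr1:2263037-2264553 with the window chr1:2262787-2263086, and PCNA2 on the minus strand at chr2:12649906-12651753 with the window chr2:12651704-12652003. Capitals mark a telo box, AAACCCTA, in PCNA1 and the site II letters TGGGCC in PCNA2, the second of them on the other strand.
PCNA1: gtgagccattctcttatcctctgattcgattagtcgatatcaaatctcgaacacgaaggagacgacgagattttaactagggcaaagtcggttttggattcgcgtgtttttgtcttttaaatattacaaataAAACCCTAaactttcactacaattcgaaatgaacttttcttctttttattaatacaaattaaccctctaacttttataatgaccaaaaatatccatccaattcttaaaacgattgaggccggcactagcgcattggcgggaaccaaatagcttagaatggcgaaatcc
PCNA2: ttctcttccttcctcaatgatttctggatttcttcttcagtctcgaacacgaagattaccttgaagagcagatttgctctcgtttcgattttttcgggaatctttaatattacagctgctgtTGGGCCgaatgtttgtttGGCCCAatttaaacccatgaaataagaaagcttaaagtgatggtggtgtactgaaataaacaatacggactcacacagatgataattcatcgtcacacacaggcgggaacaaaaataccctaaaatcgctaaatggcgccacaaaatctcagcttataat
The telo box of PCNA1 starts at −118, and 6.22% of all windows hold one. The site II matches of PCNA2 start at −128 and −110. None of the 10 windows held the E2F letters TTTCCCGC, TTTCGCGC, TTTGCCGC or TTTGGCGC on either strand, which 1.76% of all windows hold. Looser spellings of the E2F site were not searched, so the windows may hold other E2F-like letters. MSA cores were in 6 of the 10 windows: KNOLLE, HINKEL, CYCB1;1, CYCB1;2, CYCB1;4 and CDKB2;2.

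Ordered by FPKM, which allows genes of different length to be set side by side, WT levels ran from PCNA2 at 10.3 ± 0.644 and PCNA1 at 4.77 ± 0.772 to CDKB1;1 at 2.36 ± 0.015 and CDKB2;1 at 2.06 ± 0.334. CDKB2;2 at 1.41 ± 0.152, KNOLLE at 1.23 ± 0.053 and CYCB1;1 at 0.310 ± 0.148 followed. HINKEL at 0.092 ± 0.026, CYCB1;2 at 0.067 ± 0.077 and CYCB1;4 at 0.042 ± 0.073 came last (SD, n = 3). In WT the ranges of neighbours overlapped for CDKB1;1 and CDKB2;1, for CDKB2;2 and KNOLLE, and among the last 3. KNOLLE was the gene whose place changed most: 6th in WT, 4th in SR45a-1a-OE at 2.43 ± 0.554 FPKM and 7th in sr45a at 0.218 ± 0.124 FPKM, where its range overlapped that of HINKEL at 0.151 ± 0.055. PCNA2, PCNA1 and CDKB1;1 kept the first 3 places in every genotype.

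Set against the whole table, 3 of the 8 tested genes passed an adjusted p of 0.05 in SR45a-1a-OE against WT (KNOLLE, PCNA1 and CDKB1;1), all higher. Of all genes tested, 15.3% passed in that comparison, 6.76% higher and 8.59% lower. In sr45a against WT, 2 of the 8 passed, PCNA1 higher and KNOLLE lower, beside 1.62% of all genes, 0.861% higher and 0.761% lower. Between SR45a-1a-OE and sr45a, 2 passed, KNOLLE higher in the overexpressor and PCNA2 lower, beside 7.26% of all genes, 2.81% higher and 4.45% lower. Since these contrasts chose the 10 genes, nothing is read from the counts. Groups that did not overlap were found for 4 of the 8 in SR45a-1a-OE against WT, all higher (CYCB1;1 beside the 3 above), where 35.5% of all genes did not overlap, 16.9% higher and 18.7% lower. In sr45a against WT this held for 6, with CDKB1;1, CDKB2;1, PCNA1 and PCNA2 higher and KNOLLE and CDKB2;2 lower, beside 24.1% of all genes, 11.3% higher and 12.8% lower. Between SR45a-1a-OE and sr45a it held for KNOLLE, higher, and PCNA2, lower, beside 25.2% of all genes, 11.8% higher and 13.4% lower. The median log2 difference of the 8 was 0.46 in the overexpressor and 0.55 in sr45a against WT, and −0.03 between these genotypes, where the medians of all genes were 0.01, −0.00 and 0.01. The comparisons with WT share the same 3 WT libraries.

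**Figure D3:**
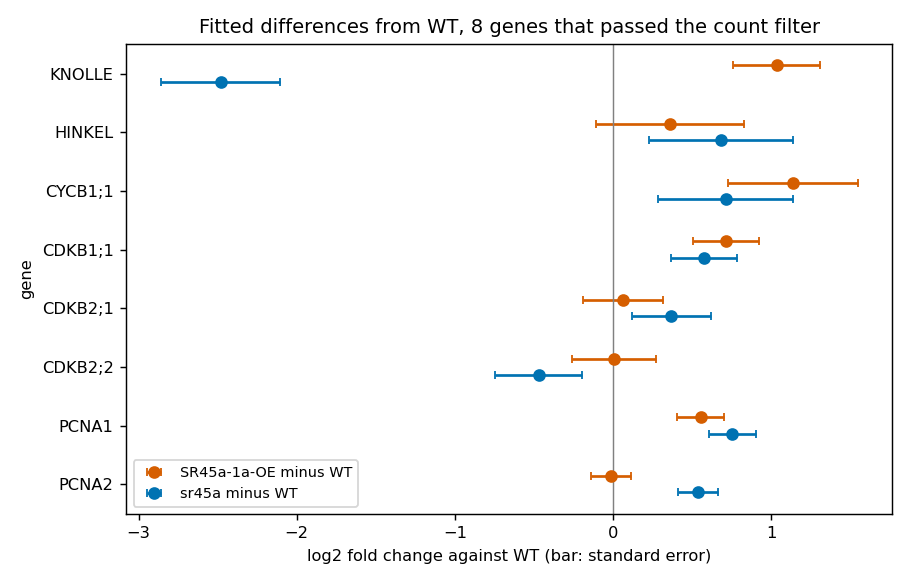
Fitted log2 fold change against WT (x axis) with its standard error for the 8 tested genes, SR45a-1a-OE in orange and sr45a in blue. KNOLLE is at 1.03 and −2.48, on opposite sides of 0, while CDKB1;1 and PCNA1 are above 0 in both and PCNA2 is at −0.01 and 0.53.

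Differences from WT, drawn in the plot of fitted fold changes, thus had 1 sign in both altered genotypes for HINKEL, CYCB1;1, CDKB1;1, CDKB2;1 and PCNA1. Of these, CDKB2;1 was close to 0 in the overexpressor at 0.06 (SE 0.25), and HINKEL at 0.36 (SE 0.47) was within its standard error. The signs were opposite for KNOLLE, and also for CDKB2;2 (0.00 and −0.47) and PCNA2 (−0.01 and 0.53), whose values in the overexpressor were close to 0. SR45a-1a-OE replicate 2 was the highest library of its group for 9 of the 10 genes, KNOLLE being the exception with replicate 1. Over all genes tested replicate 2 was the highest of the group in 34.3%, and over 113 related cell cycle genes in 36.3%. The mean standardised log2 CPM of the 8 genes was 1.07 in that library, 0.06 and −0.33 in the other two of SR45a-1a-OE, −0.46, −0.46 and −0.58 in WT and 0.29, 0.27 and 0.14 in sr45a. Without replicate 2 the differences of SR45a-1a-OE from WT were 0.98 for KNOLLE, 0.52 for CDKB1;1, 0.51 for PCNA1, −0.17 for CDKB2;1 and −0.29 for CDKB2;2. KNOLLE and PCNA1 were therefore nearly as far from WT without that library, and CDKB2;1 and CDKB2;2 were below WT in place of at or above it.

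**Figure D4:**
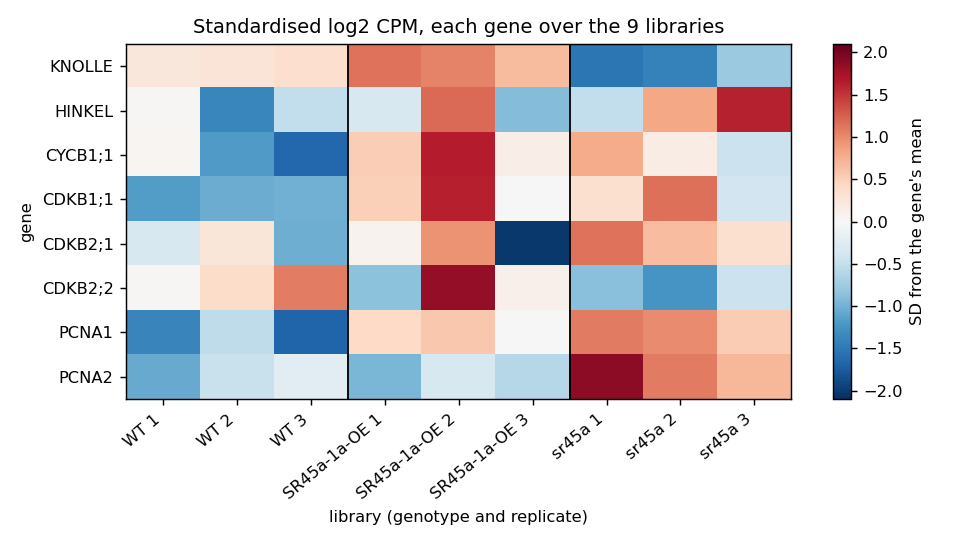
Standardised log2 CPM of the 8 tested genes (rows) in the 9 libraries (columns), in SD from the gene's own mean over the libraries. SR45a-1a-OE replicate 2 is red in 7 of the 8 rows, its mean being 1.07. KNOLLE and CDKB2;2 are blue in all sr45a libraries, while the PCNA rows are red there.

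The heat map of standardised levels shows how loosely the genes moved together. Over the 28 pairs of the 8 genes, Pearson's r of log2 CPM across the 9 libraries had a median of 0.30, from −0.91 for KNOLLE with PCNA2 to 0.80 for CYCB1;1 with CDKB1;1. After the genotype means were taken away the median was 0.26, and 21 of the 28 values were above 0. All genes of a library share its depth and its plants, so these are descriptions of 9 libraries. Outside the set, the 8 named genes whose log2 CPM was most like the mean profile, by Pearson's r over the 9 libraries, were GLN1.3 (0.953), IMPA-6 (0.943), SULTR2;1 (0.938), CSN5A (0.932), PMEPCRA (0.927), TBL39 (0.926), EXPA9 (0.926) and OPS (0.926).

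Other genes of the division machinery, in 7 lists grouped by role, gave 113 tested genes out of 120. In SR45a-1a-OE against WT 11 rose and 10 fell, 18.6% of the 113, beside the 15.3% over all genes. In sr45a against WT 1 rose and none fell in the edgeR test, 0.885%, where 18 had an unadjusted p under 0.05 and DESeq2 called 3. Between SR45a-1a-OE and sr45a none was higher in the overexpressor and 7 were lower, 6.19%, where 37 had an unadjusted p under 0.05 and DESeq2 called 14 in all. Over all 20103 genes an unadjusted p under 0.05 was found for 3158 in sr45a against WT and 5053 between the altered genotypes. The unadjusted counts of single lists below have that background too, and nothing is read from them. Median differences of the 113 were −0.07, 0.08 and −0.15. The 21 calls in the overexpressor became 9 without WT replicate 2 or without SR45a-1a-OE replicate 1. The 7 between the altered genotypes became 1 without replicate 1 of either or replicate 2 of sr45a, and 20 without SR45a-1a-OE replicate 3. All adjusted p-values below are from edgeR's quasi-likelihood test over 20103 genes. In sr45a against WT 1.62% of all genes passed it, so nothing is read from a list in which none did.

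Of 27 cytokinesis and spindle genes, 3 rose and 3 fell in SR45a-1a-OE, 22.2% beside the 15.3% of all genes, with a median log2 difference of 0.07. MAP65-1, which bundles phragmoplast microtubules, fell from 49.5 ± 2.81 to 32.1 ± 2.75 CPM (log2 −0.62, SE 0.10, adjusted p = 0.00476). NPSN11, a SNARE partner of KNOLLE, fell from 13.7 ± 0.419 to 9.33 ± 1.53 CPM (−0.55, SE 0.16, adjusted p = 0.0369). MAD2, of the spindle checkpoint, rose from 0.230 ± 0.141 to 0.985 ± 0.227 CPM (2.08, SE 0.44, adjusted p = 0.0114). None of the 27 passed in sr45a by edgeR or DESeq2, beside the 1.62% of all genes, and 5 had an unadjusted p under 0.05. There the most abundant were DRP1A, a dynamin of the cell plate, at 137 ± 5.32 against 153 ± 4.26 CPM in WT, and SYP71, another SNARE partner, at 72.7 ± 2.37 against 71.6 ± 2.81 CPM.

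Among 16 kinases and D-type cyclins 3 rose and 2 fell in SR45a-1a-OE, 31.25% beside the 15.3% of all genes. CDKB1;2, the paralogue of CDKB1;1, rose from 0.499 ± 0.124 to 1.71 ± 0.802 CPM (1.77, SE 0.37, adjusted p = 0.0115). CYCD3;3 rose by 0.35 (SE 0.10, adjusted p = 0.0310) and CYCD1;1 fell with −0.89 (SE 0.16, adjusted p = 0.00662), both being D-type cyclins of the G1-to-S step. None passed in sr45a by edgeR, where 4 had an unadjusted p under 0.05 and DESeq2 called 1. There CYCD3;3 stood at 49.7 ± 2.01 against 38.9 ± 2.86 CPM and CYCD2;1 at 36.3 ± 2.11 against 38.0 ± 0.946 CPM. Of 11 tested A- and B-type cyclins 1 rose and 1 fell in SR45a-1a-OE, 18.2% beside the 15.3% of all genes. CYCA3;2, an S-phase cyclin, rose by 0.86 (SE 0.25, adjusted p = 0.0388). CYCA1;1 fell from 1.04 ± 0.184 to 0.157 ± 0.050 CPM (−2.67, SE 0.64, adjusted p = 0.0186) and was likewise lower than in sr45a, by −2.71 (SE 0.64, adjusted p = 0.0291). None of the 11 passed in sr45a by either tool or had an unadjusted p under 0.05, and CYCA3;4 stood at 7.25 ± 1.10 against 6.43 ± 1.01 CPM and CYCA2;3 at 6.60 ± 0.726 against 6.06 ± 0.757 CPM.

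Of 23 tested replication genes 1 rose and 1 fell in SR45a-1a-OE, 8.70% beside the 15.3% of all genes, with a median log2 difference of −0.31. There 14 of the 23 had an unadjusted p under 0.05, beside 6430 of all 20103 genes. In sr45a against WT 1 rose, 4.35% beside 1.62%, with a median of 0.23. Between the altered genotypes 3 were lower in SR45a-1a-OE, 13.0% beside 7.26%, with a median of −0.47. There 13 had an unadjusted p under 0.05, beside 5053 of all genes. TSO2, a small subunit of ribonucleotide reductase, rose in both genotypes, from 14.5 ± 1.79 CPM to 22.7 ± 3.85 in SR45a-1a-OE (0.64, SE 0.14, adjusted p = 0.0118) and 23.4 ± 1.30 in sr45a (0.69, SE 0.14, adjusted p = 0.0285). That is the pattern of PCNA1, and TSO2 was the related gene called in sr45a. POLD1, the catalytic subunit of DNA polymerase delta, fell in SR45a-1a-OE (−0.60, SE 0.14, adjusted p = 0.0189). The helicase subunit MCM5, the large reductase subunit RNR1 and the licensing factor CDT1A were lower in SR45a-1a-OE than in sr45a by log2 differences of −1.10 (SE 0.21, adjusted p = 0.0126), −1.06 (SE 0.22, adjusted p = 0.0164) and −1.44 (SE 0.30, adjusted p = 0.0183). MCM5 stood at 10.1 ± 2.37 CPM in WT, 6.46 ± 1.55 in the overexpressor and 13.9 ± 2.09 in sr45a. PCNA2 had the same order between the altered genotypes, with 12.0 against 17.5 CPM.

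WEE1, a kinase that restrains cyclin-dependent kinases after DNA damage, was the 1 gene that passed among 15 tested inhibitors and exit genes in SR45a-1a-OE, where it rose from 3.24 ± 0.472 to 7.70 ± 1.53 CPM (1.24, SE 0.19, adjusted p = 0.00392). That is 6.67% of the 15, beside the 15.3% of all genes. None of the 15 passed in sr45a by edgeR, where 2 had an unadjusted p under 0.05 and DESeq2 called 1. There KRP4, a kinase inhibitor like KRP6, stood at 13.7 ± 1.55 against 14.7 ± 1.04 CPM and KRP6 at 13.6 ± 2.84 against 14.6 ± 2.51 CPM. Among the 6 DNA damage genes, GMI1, which is induced by DNA breaks, fell in SR45a-1a-OE (−0.71, SE 0.20, adjusted p = 0.0341). None of the 6 passed in sr45a by either tool, and 2 had an unadjusted p under 0.05, with PARP at 11.9 ± 1.80 against 11.6 ± 0.684 CPM and XRI1 at 10.1 ± 0.191 against 10.6 ± 1.17 CPM.

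Among 15 tested regulators 1 rose and 2 fell in SR45a-1a-OE, 20% beside the 15.3% of all genes. MYB3R1, a factor that binds the MSA core, fell from 61.7 ± 6.45 to 38.6 ± 2.51 CPM (−0.68, SE 0.10, adjusted p = 0.00392). DEL3, an atypical E2F, rose by 0.73 (SE 0.12, adjusted p = 0.00511), and DPA, an E2F partner, fell with −0.49 (SE 0.13, adjusted p = 0.0273). In sr45a none passed by either tool and 2 had an unadjusted p under 0.05, MYB3R1 being at 51.2 ± 3.67 CPM and MYB3R3 at 29.2 ± 1.22 against 32.7 ± 2.75 CPM in WT. Calls in SR45a-1a-OE that no alternative processing ended included those of CYCD1;1, CDKB1;2, MAP65-1, TSO2, WEE1, MYB3R1 and DEL3. Those of CYCA1;1, CYCA3;2, CYCD3;3, MAD2, NPSN11, POLD1, DPA and GMI1, and of TSO2 in sr45a, were lost in at least 1 alternative, with adjusted p up to 0.148. Leaving out SR45a-1a-OE replicate 1 ended each of these 8 calls in the overexpressor, leaving out WT replicate 2 ended all of them but GMI1, and other single libraries ended fewer. Leaving out any WT or sr45a library ended that of TSO2 in sr45a, with adjusted p up to 0.122.

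Markers of the tissues that hold dividing cells were summed per library. Shoot meristem and primordia markers (10 genes, 6 tested) came to 35.7–47.0 CPM in WT, 32.5–35.4 in the overexpressor and 37.0–41.7 in sr45a, with CLV3, the stem-cell peptide, at 0 in all 9 libraries. KNAT1, a meristem homeobox gene, fell in SR45a-1a-OE (−0.63, SE 0.15, adjusted p = 0.0155). Of the 6 tested, 3 had an unadjusted p under 0.05 in SR45a-1a-OE, beside 6430 of all 20103 genes, and 0 in sr45a. Without KNAT1 the other 9 came to 17.1–20.9, 17.6–20.6 and 19.7–22.8 CPM, and the median log2 difference of the 6 tested markers was 0.13 in either altered genotype. Root markers (10 genes, 9 tested) came to 246–251 CPM in WT, 162–235 in the overexpressor and 184–217 in sr45a, both altered genotypes lying below WT in every library. The phosphate transporter PHT1;1 fell in both, by log2 values of −0.75 (SE 0.13, adjusted p = 0.00605) and −0.68 (SE 0.13, adjusted p = 0.0265). An unadjusted p under 0.05 was found for 3 of the 9 tested in either altered genotype. Without PHT1;1 the other 9 came to 104–106 CPM in WT, 92.7–139.7 in the overexpressor and 97.8–116.8 in sr45a, and the medians of the 9 tested markers were 0.02 and 0.11. KNAT1 and PHT1;1 were left out because they passed against WT, after the values were seen, so nothing is read from the sums without them. Stomatal lineage markers (8 genes, all tested) came to 41.9–61.6, 44.1–51.3 and 44.3–55.6 CPM. None of them passed by edgeR or DESeq2, and an unadjusted p under 0.05 was found for 0 in the overexpressor and 1 in sr45a. What KNAT1, PHT1;1 or the tissues they mark contribute to the levels of KNOLLE, the cyclins, the kinases and PCNA was not tested.

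KNOLLE and PCNA1 lie within 500 kb of SR45a on chromosome 1. SR45a lies at chr1:2257384-2260187, minus strand, PCNA1 starts 2849 bp beyond it with MAC5A between them, and KNOLLE lies 449337 bp beyond it. MAC5A, an RNA-binding protein of a spliceosome-associated complex, did not pass in SR45a-1a-OE (0.34, SE 0.11, adjusted p = 0.0590) or sr45a (0.29, SE 0.11, adjusted p = 0.231). AT1G07380, next on the other side of PCNA1, stood at −0.30 (SE 0.15, adjusted p = 0.203) and 0.03 (SE 0.15, adjusted p = 0.952). Within 500 kb of SR45a, a window set after these values were seen, 244 genes were tested. Leaving out KNOLLE and PCNA1, 1 of 242 rose and 5 fell in sr45a, 2.48% beside the 1.62% of all genes. In SR45a-1a-OE 21 of the 242 rose and 15 fell, 14.9% beside 15.3%. Of the 5 that fell in sr45a, 4 lay between 307 and 492 kb on the side of KNOLLE: VPS41, AT1G08310, TGA9 and PPCK1. These 4 fell in SR45a-1a-OE as well, where KNOLLE was higher. AT1G08310 stood at −2.22 (SE 0.17, adjusted p = 8.27e-05) in sr45a and −0.58 (SE 0.15, adjusted p = 0.0276) in SR45a-1a-OE. PPCK1, a kinase of phosphoenolpyruvate carboxylase, stood at −1.10 (SE 0.13, adjusted p = 0.00148) and −0.64 (SE 0.12, adjusted p = 0.00846). What linkage to the SR45a locus contributes to the KNOLLE and PCNA1 levels was not tested.

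**Figure D5:**
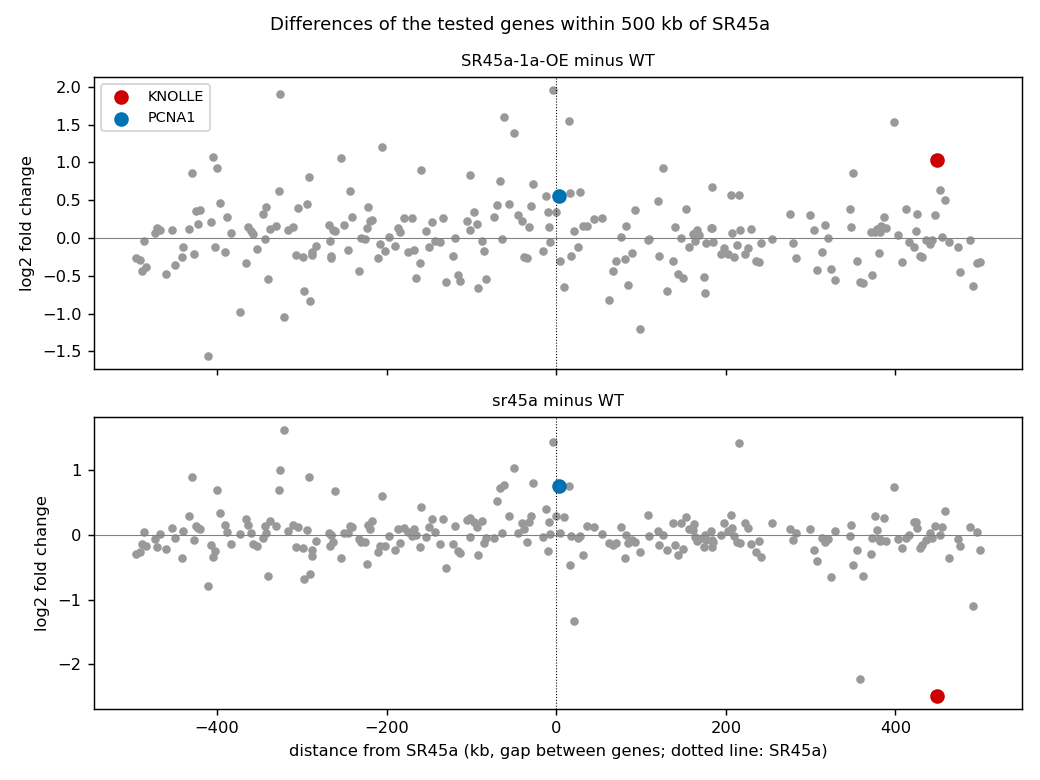
Log2 fold change against WT of the 244 tested genes within 500 kb of SR45a, by distance in kb from that gene (dotted line), in SR45a-1a-OE (top) and sr45a (bottom). KNOLLE (red) at 449 kb has the lowest value of the sr45a panel, −2.48, and stands at 1.03 above, and PCNA1 (blue) is beside SR45a at 0.55 and 0.75.

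Drawn by distance, as in the plot of genes near SR45a, most of the 244 genes lay close to 0 in sr45a, with medians of 0.01 in the overexpressor and −0.00 in sr45a, and KNOLLE had the lowest value of that region in sr45a. SR45a is left out of this count.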

How the data were processed

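Per the labels, 150-bp read pairs from total RNA were trimmed with fastp (minimum length 36 bp, mean quality above 30). Aligner, counter and strand setting are not given in the sources used here. The deposited tables give, per the file headers, a count and an FPKM for each gene, and for each transcript an estimated count and an FPKM. Both ends of 26961 of 26968 deposited loci equalled those of TAIR10.1.

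Gene counts of all 9 libraries entered 1 quasi-likelihood fit in edgeR 4.0.16 (R 4.3.3) with TMM scaling. The filterByExpr minimums were 10 counts and a total of 15, and Benjamini-Hochberg adjustment covered 20103 genes. On simulated data (SR45a-1a-OE minus WT, 20103 genes, 200 of them changed by 1 on the log2 scale) it recovered 82.5%, with 11 false calls. The changed genes were drawn only from those above a minimum mean count. KNOLLE, HINKEL, CYCB1;1 and CDKB2;2 fell below that minimum, so the recovery does not cover them. SE came from the F statistics. Summaries used Python 3.11.15, pandas 2.3.3 and matplotlib 3.10.9, and promoters came from NCBI's TAIR10.1 genome.

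The 10 genes and all lists were chosen with earlier results of these data known. The rule named, per list and comparison with WT, the 3 called genes of smallest p, or the 2 most abundant where none was called, and the 8 genes most like the mean profile. Genes called between the altered genotypes, KNAT1 and PHT1;1, and neighbours of KNOLLE, PCNA1 and SR45a were added after their values were seen. Alternatives were DESeq2 1.42.0 (size factors or Wald test), no filter, 1 CPM in 3 libraries, fitting 6 libraries at a time, a replicate block, limma 3.58.1 on log2(FPKM + 1) and log2(FPKM + 0.1), and leaving out libraries. Replicates differed by a chi-square of 5.25 to 40.2 per gene, so none is a second copy of another. The result of 1 gene of the DNA damage list is not reported here.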

Additional observations from a re-analysis of the deposited data

How the results depend on the processing

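For the 8 tested genes, 411 of 424 values under the alternatives moved by less than 1 SD between replicates. The 13 others came from limma on log2(FPKM + 1), which understates low genes, or from leaving out replicate 3 of sr45a, alone or with that of SR45a-1a-OE. This limit is loose, since leaving out 1 of 3 libraries seldom moves a mean that far. Within it, SR45a-1a-OE against WT ran from −0.02 to 0.58 for HINKEL, −0.17 to 0.30 for CDKB2;1 and −0.29 to 0.20 for CDKB2;2. The 411 are therefore not a measure of stability. On log2(FPKM + 1) the median of the 8 was 0.18 in SR45a-1a-OE and 0.24 in sr45a against WT. Between SR45a-1a-OE and sr45a it was 0.28 with no filter and with DESeq2, each over all 10 genes. Leaving out 1 library at a time gave 0.25 to 0.69, 0.45 to 0.61 and −0.15 to 0.27 for these 3 medians.

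Counts over all genes were 3084 for SR45a-1a-OE against WT, 326 for sr45a against WT and 1459 between them, and 975 to 3944, 106 to 484 and 270 to 2653 with 1 library left out. The related genes called were then 9 to 23, 0 to 2 and 1 to 20. DESeq2 called 704 genes, 3 of them related, in sr45a against WT, and 14 related genes between the altered genotypes. Only the 6 libraries compared gave 532 and 2 in sr45a against WT, and 557 and 4 between the altered genotypes. limma on log2(FPKM + 0.1) gave 4 related genes there. Without replicate 3 of both altered genotypes that comparison had 4160 genes and 26 related ones. With the replicate number as a block the counts were 1842 and 13 related for SR45a-1a-OE against WT, 193 for sr45a against WT, and 575 and 4 between them. The replicate numbers do not pair the libraries: deviations of same-numbered libraries had r from −0.33 to 0.19, above 0.1 in 2 of 9 pairs. The causes of these changes were not tested.

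Counts limit HINKEL and the B1 cyclins, with 0 to 34 per library, and KNOLLE in sr45a, with 4 to 10.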
